A study of Mus musculus with 12 samples.

Results

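A set of 10 genes that drive or gate the cell cycle was followed in 3T3-L1 cells, mouse preadipocytes of a fibroblast line that form fat cells when induced with hormones. They are 4 cyclin-dependent kinases (Cdk1, Cdk2, Cdk4 and Cdk6), the 3 Cdc25 phosphatases (Cdc25a, Cdc25b and Cdc25c), the inhibitory kinases Wee1 and Pkmyt1, and Skp2. They were chosen by symbol, and all 10 were found once among the 55487 genes of the table and passed its filter on low values. The cells were infected with a lentivirus, either with a scrambled hairpin (shScram) or with one that targets Fto, an RNA demethylase (shFto, written shFTO in the sample titles), and were selected with puromycin. Total RNA was sequenced from preadipocytes before induction (Pre), at the mitotic clonal expansion stage (MCE), in which the arrested cells divide again under the MDI cocktail of IBMX, dexamethasone and insulin, and after differentiation (Diff), with 2 libraries in each of the 6 groups. Which of the study's Fto hairpins these cells carried is not named, and nothing says that the libraries came from separate cultures, so the p-values measure the spread between libraries, which may be technical.

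Cyclin-dependent kinases phosphorylate their targets only when bound to a cyclin. Cdk4 and Cdk6 act with D-type cyclins early in G1, Cdk2 with cyclins E and A around S phase, and Cdk1 with cyclins A and B at the entry into mitosis. Wee1 and Myt1, the product of Pkmyt1, phosphorylate residues in the ATP-binding loop of Cdk1 and Cdk2 and so switch them off, and the Cdc25 phosphatases remove these phosphates. Skp2 is the F-box protein that brings the inhibitor p27 to the proteasome. In 3T3-L1 cells the hormonal cocktail restarts this machinery before the adipocyte genes are switched on.

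The sequence on which the switch enzymes act is shown first, since it sets apart the kinases described below. These are coding bases of the ATP-binding loop on GRCm38, read 5′ to 3′ along the gene's strand, with the codons for the position of the threonine and the tyrosine in capitals. In Cdk1 (chr10:69346215-69350105, minus strand, spanning an exon junction) and Cdk2 (chr10:128704774-128704800, minus strand) these are codons 14 and 15. In Cdk4 (chr10:127064269-127064295, plus strand) they are codons 16 and 17, and in Cdk6 (chr5:3344421-3344447, plus strand) codons 23 and 24.
Cdk1: attggagaaggtACTTACggtgtggtg
Cdk2: attggagagggcACGTACggagtggtg
Cdk4: attggtgtcggtGCCTATgggacggtg
Cdk6: atcggcgaaggcGCCTATgggaaggtg
All 4 kinases keep a tyrosine codon (TAC or TAT). Cdk1 and Cdk2 have a threonine codon (ACT and ACG) before it, whereas Cdk4 and Cdk6 both have GCC, an alanine codon.

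RefSeq promoters on GRCm38.p6 were matched for 7 of the 10 genes, and 5 of them are printed. Those of Cdk6 and Skp2 are not printed, although these genes also had called differences between stages or lines. Each run is the 250 bases before the transcription start, 5′ to 3′ along the gene's strand. Capitals mark motifs on either strand. The motifs searched were the CHR element of G2/M genes (TTTGAA or TTTAAA), the CCAAT box (CCAAT), the E2F site (TTTCCCGC, TTTCGCGC, TTTGCCGC or TTTGGCGC) and the E-box bound by Myc and other factors (CACGTG). No match overlapped a match of another motif.
Cdk1, chr10:69352913-69353162, minus strand: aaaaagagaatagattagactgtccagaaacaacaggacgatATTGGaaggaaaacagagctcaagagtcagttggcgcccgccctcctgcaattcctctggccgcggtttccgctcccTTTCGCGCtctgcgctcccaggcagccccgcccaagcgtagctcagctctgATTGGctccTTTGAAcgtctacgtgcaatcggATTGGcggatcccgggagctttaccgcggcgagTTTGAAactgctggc
Cdk2, chr10:128705052-128705301, minus strand: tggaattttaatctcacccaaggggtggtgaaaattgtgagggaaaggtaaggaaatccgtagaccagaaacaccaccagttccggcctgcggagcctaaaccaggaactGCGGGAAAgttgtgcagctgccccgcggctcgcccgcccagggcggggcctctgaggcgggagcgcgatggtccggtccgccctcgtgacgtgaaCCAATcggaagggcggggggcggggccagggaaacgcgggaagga
Cdk4, chr10:127063285-127063534, plus strand: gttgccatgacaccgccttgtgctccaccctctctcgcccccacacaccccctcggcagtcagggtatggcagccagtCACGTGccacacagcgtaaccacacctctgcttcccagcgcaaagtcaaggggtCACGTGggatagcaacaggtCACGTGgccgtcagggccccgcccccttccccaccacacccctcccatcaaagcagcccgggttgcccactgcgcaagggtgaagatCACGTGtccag
Cdc25a, chr9:109875329-109875578, plus strand: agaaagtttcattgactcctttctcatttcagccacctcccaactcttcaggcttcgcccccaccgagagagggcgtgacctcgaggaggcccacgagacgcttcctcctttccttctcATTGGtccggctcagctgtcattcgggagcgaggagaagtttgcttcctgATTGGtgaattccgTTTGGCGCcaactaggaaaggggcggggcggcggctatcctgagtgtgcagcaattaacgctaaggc
Cdc25b, chr2:131186698-131186947, plus strand: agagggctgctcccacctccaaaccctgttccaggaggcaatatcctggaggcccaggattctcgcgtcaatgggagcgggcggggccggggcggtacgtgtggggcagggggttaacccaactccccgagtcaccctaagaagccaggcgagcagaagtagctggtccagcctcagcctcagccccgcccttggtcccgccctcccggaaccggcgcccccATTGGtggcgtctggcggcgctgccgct
The Cdk1 promoter held 2 CHR elements, 3 CCAAT boxes and 1 E2F site. The promoters of Cdk2 and Cdc25a each held 1 E2F site, with 1 and 2 CCAAT boxes. That of Cdk4 held 4 E-boxes and none of the other motifs, and that of Cdc25b held a single CCAAT box. Of the promoters not printed, that of Cdk6 held 1 E-box. The first start of Skp2 held 3 CHR elements and 1 CCAAT box, and its other start none of the motifs. Of all 32851 promoters of this length, 25.2% held a CHR element, 33.8% a CCAAT box, 1.9% an E2F site and 6.0% an E-box. A match is a run of letters and was not tested as a binding site.

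**Figure D1:**
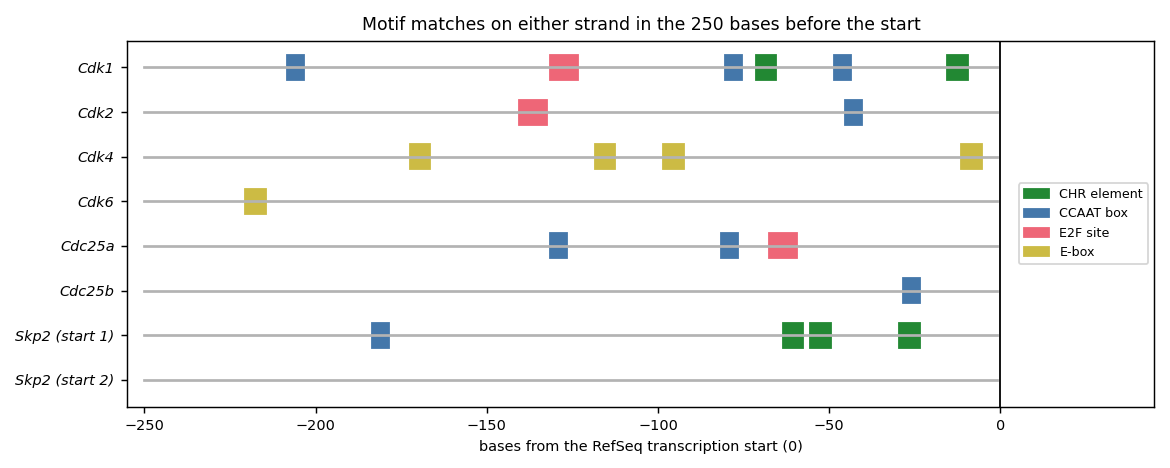
Positions of the motif matches (colored boxes, either strand) in the 250 bases before the RefSeq start of the 7 matched genes, with the distance to the start in bases on the horizontal axis and 1 line per promoter. CHR elements were matched in the promoters of Cdk1 and the first start of Skp2, and E-boxes in those of Cdk4 (4) and Cdk6 (1).

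Values are TPM, in which each gene is scaled by its length and by the library total, so levels may be compared between genes, but the sequencing depth behind them is unknown. Between 20853 and 24018 genes were above 0 in a library. Fto in shFto cells stood at 9.97%, 10.8% and 10.1% of its mean in shScram cells at Pre, MCE and Diff. The 2 shScram preadipocyte libraries were less alike (r = 0.939 across genes) than the pairs of the other groups (0.990 to 0.993), and replicate 1 correlated less with the 10 libraries of the other groups (0.857 to 0.903) than replicate 2 did (0.920 to 0.968). Results are therefore also given without replicate 1, and at Pre without replicate 2 where it changes the value. The treatment entry of replicate 1 of shScram at Diff names the Fto knockdown and its title names shScram, which was followed. All 8 fibroblast markers were present in each group. The summed TPM of 10 adipocyte markers was 1519 to 1529 in shScram and 418 to 457 in shFto cells at Diff, and Lep stayed below 1 TPM in every library. At Pre the sum was 133 to 192 in shScram and 268 to 300 in shFto cells. Most of it was Lpl (174 and 111.8 against 247.2 and 281 TPM), with Adipoq at 0 in both lines. At MCE the sum was 377 to 378 in shScram and 267 to 275 in shFto cells. The markers disagreed there, with Lpl higher in shFto cells (195.9 and 198.9 against 92.42 and 77.15 TPM). Fabp4 was lower in them (44.14 and 52.68 against 210.8 and 231 TPM), as were Cd36, Plin1 and Pparg. Of 5 leukocyte markers Ptprc, Adgre1 and Itgam were below 1 TPM in every library, while Cd68 reached 3.04 and Csf1r 1.40 TPM, and the list summed to 0.515 to 4.06 TPM. All 4 endothelial markers were below 1 TPM in every library (Kdr at 0), with sums of 0.0845 to 1.15 TPM. Of 4 muscle markers Myod1, Myog and Ckm were below 1 TPM, while Des held 3.28 to 8.0 TPM in shScram cells and 6.32 to 13.2 TPM in shFto cells and was higher in the latter at each stage. Their part in the results was not tested. In bulk RNA, fewer cells of a type and less RNA per cell cannot be told apart.

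In shScram cells, from Pre to MCE, Cdk1, Wee1 and Cdc25b rose and Cdk2 and Cdk6 fell. From MCE to Diff, Cdk1, Cdc25b, Cdc25c and Wee1 fell, while Cdk6 rose. The first step had 3 of 10 members called higher and 2 lower (limma, adjusted p under 0.05), where 12.2% and 26.9% of the 15968 genes tested were called. The second had 1 called higher and 4 lower, against 20.0% and 5.22% of all genes. The median gene itself shifted on the log2(TPM + 1) scale, by -0.17 at the first and 0.23 at the second step in shScram cells and by -0.18 and 0.17 in shFto cells, and with median-ratio scaling it did not. The members' medians at the same steps were 0.18 and -0.47 in shScram cells and 0.27 and -0.43 in shFto cells. Without replicate 1 of shScram at Pre, 5 members were called at the first and 9 at the second step, and so were 48.1% and 52.0% of all genes. Without replicate 1 of shScram at Diff 3 and 4 were called, beside 35.1% and 13.8% of all genes. With median-ratio scaling 4 members were higher and 0 lower at the first step and 0 higher and 6 lower at the second. In either direction, 37.8% and 22.7% of all genes were called at these steps. With quantile normalization the members were 4 and 1, and 0 and 5, beside 35.5% and 17.8% of all genes. Under both scalings Cdc25c joined the members that rose and Skp2 those that fell, and no step of Cdk6 passed.

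In shFto cells the course differed in part. From Pre to MCE, Cdk1 rose and Cdk6 and Cdc25b fell (1 of 10 higher and 2 lower, against 8.8% and 19.9% of all genes). From MCE to Diff, Cdk6 and Cdc25b rose and Cdc25c fell (2 higher and 1 lower, against 20.2% and 6.48%). These counts changed with the scaling. With median-ratio scaling 4 members were higher and 0 lower at the first step (Cdk1, Cdc25a, Cdc25c and Wee1), and 1 was higher (Cdk6) and 5 were lower at the second (Cdk1, Cdk4, Cdc25a, Cdc25c and Skp2). With quantile normalization the same 4 were higher and Cdc25b was lower at the first step, and at the second Cdc25b was higher and the same 5 were lower. In either direction, 28.3% and 28.1% of all genes were called at the 2 steps with median-ratio scaling. With quantile normalization these shares were 25.3% and 22.4%. Without replicate 1 of shScram at Pre, which is in neither contrast but in the shared estimate of the spread, 5 and 8 members were called at these steps, beside 51.1% and 50.9% of all genes.

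Between the lines, no member was called lower in shFto cells at any stage in the fit of all 12 libraries, and with either other scaling Cdc25b was called lower at MCE. At Pre, Cdc25a and Cdc25b were higher (2 of 10, where 15.9% of all genes were called higher and 12.3% lower). At MCE, Cdk2, Cdc25a and Skp2 were higher (3 of 10, against 10.5% higher and 7.26% lower). At Diff, Cdc25b, Cdc25c and Skp2 were higher (3 of 10, against 11.9% and 9.31%). Only Cdc25b at Diff was at least 2-fold higher, as were 6.08% of all genes by the same test. With either other scaling Wee1 was also called higher at Diff, and with quantile normalization Cdc25a was too. In either direction, 21.1% of all genes were called there with median-ratio scaling and 22.8% with quantile normalization. At Pre, Cdc25a was not called with quantile normalization. The median log2 fold change of the 10 members was 0.21 at Pre, 0.07 at MCE and 0.46 at Diff, and that of all genes 0.08, 0.05 and 0.03. The fit without replicate 1 of shScram at Pre, which enters the shared estimate of the spread, called 7 members at MCE and 8 at Diff, and it also called 41.0% and 45.7% of all genes. The members added at MCE were Cdk4 and Pkmyt1, higher in shFto cells, and Cdk6 and Cdc25b, lower. Those added at Diff were Cdk1, Cdk2, Cdc25a and Wee1, higher, and Cdk6, lower. The log2 fold changes at MCE and Diff were the same in that fit, since that library takes no part in these contrasts.

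At MCE the libraries of both lines did not overlap in any of the 10 members, with 5 higher and 5 lower in shFto cells, and the same held for 41.1% and 30.3% of all genes. At Diff 8 members were higher without overlap, 1 was lower and Pkmyt1 overlapped, against 39.0% and 34.0% of all genes. At Pre the counts were 2 and 1, against 33.6% and 26.9%.

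**Figure D2:**
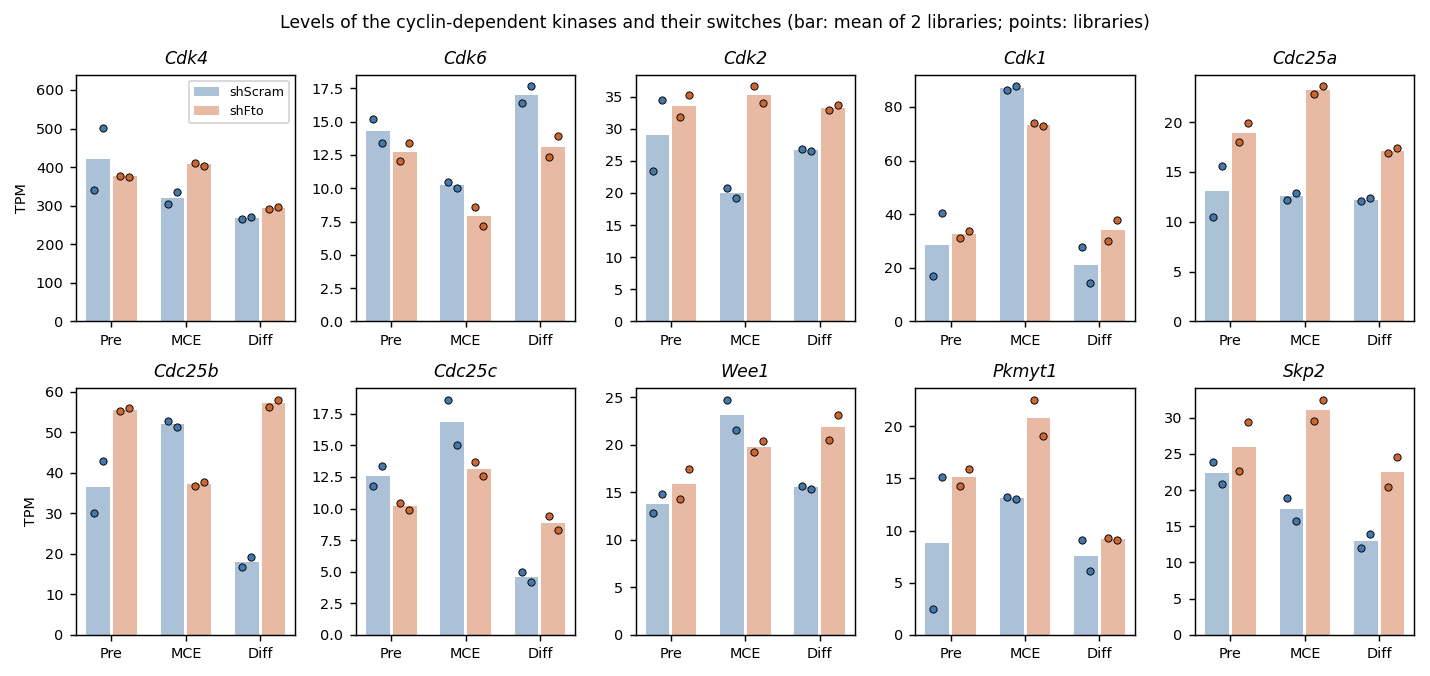
TPM of each member (vertical axis, own scale per panel) in shScram (blue) and shFto cells (orange) at Pre, MCE and Diff, with bars for the mean of 2 libraries and points for libraries. Cdk1 peaks at MCE in both lines, and Cdc25b is low in shScram cells at Diff (16.9 and 19.2 TPM) beside 56.3 and 58.1 TPM in shFto cells.

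Cdk4, the G1 kinase (chromosome 10, 127063534 to 127067920, GRCm38), was the most abundant member by far. It stood at 341 and 501 TPM in shScram cells and 378 and 374 TPM in shFto cells at Pre, at 305 and 336 against 411 and 403 TPM at MCE, and at 267 and 272 against 290.4 and 296 TPM at Diff. It supplied 72.1% to 85.9% of the summed TPM of the 4 kinases in every library. Its levels ran from 421 TPM on average in shScram cells at Pre to 269 TPM in shScram cells at Diff, a ratio of 1.56, and only the top pair of neighbors in this order, shScram at Pre and shFto at MCE, overlapped. No knockdown effect on Cdk4 passed the test (log2 fold change 0.35 at MCE, 95% interval -0.03 to 0.73, adjusted p = 0.204), and the sign at Diff (0.12) turned to -0.01 with quantile normalization. Its fall from MCE to Diff in shFto cells passed with median-ratio scaling (-0.69, adjusted p = 0.00804) and quantile normalization (-0.50, adjusted p = 0.0253), but not on the TPM as deposited (-0.47). At Pre its value of -0.14 became -0.41 without replicate 1 of shScram (adjusted p = 0.00369) and 0.14 without replicate 2. In shScram cells the fall of Cdk4 from MCE to Diff passed with median-ratio scaling (-0.52, adjusted p = 0.0308). It did not pass with quantile normalization (-0.17, adjusted p = 0.412) or on the TPM as deposited (-0.25). The fall from Pre to MCE in shScram cells passed with quantile normalization (-0.42, adjusted p = 0.0343), but not with median-ratio scaling (-0.14). As deposited this step was -0.37, and -0.65 without replicate 1 of shScram at Pre. Cdk4 shares 641 exonic bases with Tspan31 on the opposite strand, which had a mean of 139.8 TPM, and strand use in the counting is not stated, so its level is uncertain.

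Cdk6, the partner kinase of Cdk4 in G1 (chromosome 5, 3341485 to 3531008), was lowest where Cdk1 was highest. It held 15.2 and 13.4 TPM in shScram cells and 12.05 and 13.4 TPM in shFto cells at Pre, 10.4 and 10.0 against 8.62 and 7.16 TPM at MCE, and 16.4 and 17.6 against 12.3 and 13.9 TPM at Diff. MCE was thus its lowest stage in each line, with no overlap with the other stages. The fall to MCE was -0.44 on the log2 scale in shScram cells (adjusted p = 0.0371) and -0.63 in shFto cells (adjusted p = 0.0107), and the rise to Diff was 0.68 and 0.67 (adjusted p = 0.0098 and 0.00932). With quantile normalization, which removes the shift of the median gene, the values were -0.29, -0.38, 0.44 and 0.42, and none passed (adjusted p = 0.217, 0.149, 0.116 and 0.119). With median-ratio scaling only the rise in shFto cells passed (0.48, adjusted p = 0.0449). The falls were -0.53 to -0.36 in shScram and -0.75 to -0.51 in shFto cells with any 1 library of the contrast left out. The rises were 0.63 to 0.73 and 0.55 to 0.79, and no call of Cdk6 held in all such fits. Without replicate 1 of shScram at Pre the fall in shScram cells was -0.36. The difference between the lines did not pass at MCE (-0.34, adjusted p = 0.148) or Diff (-0.35, adjusted p = 0.121), although the shFto libraries were the lower ones at both. The number of Cdk4 transcripts per Cdk6 transcript was 47.7 and 56.3 in shFto cells at MCE, above the 29.2 and 33.5 of shScram cells. Cdk6 shares 368 exonic bases with the antisense gene Gm17590, whose mean was 0.16 TPM.

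Cdk2, the S phase kinase (chromosome 10, 128697939 to 128705031), was set apart by shScram cells at MCE. It stood at 23.5 and 34.5 TPM in shScram cells and 31.8 and 35.2 TPM in shFto cells at Pre, at 20.8 and 19.2 against 36.6 and 34.0 TPM at MCE, and at 26.9 and 26.6 against 32.9 and 33.6 TPM at Diff. The shScram libraries at MCE were the lowest of all 12, and the other 5 groups overlapped with their neighbors in the order. At MCE Cdk2 was 1.73-fold higher in shFto cells on the fitted scale (log2 fold change 0.79, SE 0.17, adjusted p = 0.0126). Leaving out any 1 of the 4 MCE libraries kept the value between 0.73 and 0.85 and raised the adjusted p to 0.055 to 0.0981. The fall of Cdk2 from Pre to MCE in shScram cells (-0.49, adjusted p = 0.0475) became -0.76 without replicate 1 at Pre (adjusted p = 0.000221) and -0.22 without replicate 2 (adjusted p = 0.0867). It also missed the threshold without either MCE library (adjusted p = 0.105 and 0.197) and with median-ratio scaling (-0.27, adjusted p = 0.134). In shFto cells the same step was 0.07 (adjusted p = 0.801), and the difference between the lines in this step did not pass (0.56, adjusted p = 0.211), but did without replicate 1 of shScram at Pre (0.83, adjusted p = 0.00282).

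Cdk1, the mitotic kinase (chromosome 10, 69335146 to 69352938), had the clearest peak at MCE. It held 17.1 and 40.3 TPM in shScram cells and 31.3 and 33.7 TPM in shFto cells at Pre, 86.5 and 87.7 against 73.9 and 72.9 TPM at MCE, and 27.9 and 14.5 against 30.0 and 37.9 TPM at Diff. All 4 MCE libraries lay above the 8 others, and the groups at Pre and Diff overlapped with their neighbors in the order. In shScram cells Cdk1 rose 3.22-fold to MCE (log2 fold change 1.69, SE 0.38, adjusted p = 0.00813) and then fell by 2.06 on the log2 scale (adjusted p = 0.00516). Both calls held with any 1 library of the contrast left out, and the rise was 1.09 without replicate 1 at Pre and 2.28 without replicate 2. In shFto cells it rose by 1.15 (adjusted p = 0.0488, 0.151 to 0.171 with any 1 library of that contrast left out), and the later change of -1.10 did not pass (adjusted p = 0.0604) but did with median-ratio scaling (-1.31, adjusted p = 0.0216) and quantile normalization (-1.15, adjusted p = 0.0365).

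The knockdown effect on Cdk1 did not pass at MCE (-0.24, 95% interval -1.10 to 0.61, adjusted p = 0.736) or at Diff (0.72, -0.14 to 1.57, adjusted p = 0.223). At Diff both shFto libraries were above both shScram libraries, and the value was 1.17 without replicate 1 of shScram and 0.26 without replicate 2. At Pre it was 0.29 (adjusted p = 0.567), and -0.30 without replicate 1 of shScram. The number of Cdk1 transcripts per Cdk2 transcript at MCE was 4.15 and 4.57 in shScram and 2.02 and 2.15 in shFto cells. Cdk1 made up 20.5% and 19.4% of the summed kinase TPM there in shScram cells and 13.9% and 14.1% in shFto cells. No gene overlaps Cdk1 in the annotation.

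The profile of Cdk1 over the 6 group means was nearest to those of Mrpl53, Fam83d, Tubb4b, Kif2c and Ncapd2. The root mean square difference of the centered log2 means was 0.11, 0.17, 0.18, 0.22 and 0.22 for these genes, among 10781 genes with a mean of at least 5 TPM, while the Cdk1 profile itself spanned 2.06. Fam83d is a spindle protein, Kif2c a mitotic kinesin, Ncapd2 a condensin subunit, Tubb4b a tubulin and Mrpl53 a protein of the mitochondrial ribosome. Among the members the nearest to Cdk1 was Cdc25c (0.46), and the closest pairs were Cdc25a with Skp2 (0.20) and Cdk2 with Cdc25a (0.20). The libraries behind all these profiles are the same, so the likeness is a description.

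Cdc25a, the phosphatase of the G1 to S transition (chromosome 9, 109875579 to 109893895), was higher in shFto cells throughout. It stood at 10.5 and 15.6 TPM in shScram cells and 18.0 and 19.9 TPM in shFto cells at Pre, at 12.2 and 12.9 against 22.8 and 23.6 TPM at MCE, and at 12.1 and 12.4 against 16.9 and 17.4 TPM at Diff. All 6 shFto libraries lay above all 6 shScram libraries. At MCE it was 1.79-fold higher in shFto cells (log2 fold change 0.84, SE 0.17, adjusted p = 0.0102), and with any 1 MCE library left out the value was 0.80 to 0.88 with an adjusted p of 0.0524 to 0.0781. At Pre the difference was 0.53 (adjusted p = 0.0483), 0.26 without replicate 1 of shScram (adjusted p = 0.112) and 0.80 without replicate 2 (adjusted p = 0.000146). Without either shFto library the adjusted p was 0.133 and 0.185. At Diff the value of 0.46 did not pass (adjusted p = 0.096), nor did it with median-ratio scaling (0.45, adjusted p = 0.0562). With quantile normalization the value at Diff passed (0.41, adjusted p = 0.0434) and that at Pre did not (0.36, adjusted p = 0.0581). In shScram cells the steps from Pre to MCE and on to Diff were -0.03 and -0.04 (adjusted p = 0.912 and 0.908). In shFto cells they were 0.28 and -0.42 (adjusted p = 0.27 and 0.108), and both passed with median-ratio scaling (0.51 and -0.62, adjusted p = 0.0283 and 0.0127) and quantile normalization (0.47 and -0.59, adjusted p = 0.0226 and 0.0102). Cdc25a, Wee1 and Skp2 are shown in a heat map of these libraries by the study, so their direction is not independent evidence.

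Cdc25b, which acts at the start of mitosis (chromosome 2, 131186949 to 131198497), differed most between the lines, and its course through the stages ran in opposite directions in them. In shScram cells it held 30.1 and 43.0 TPM at Pre, 53.0 and 51.2 TPM at MCE, and 16.9 and 19.2 TPM at Diff. In shFto cells it held 55.3 and 55.9 TPM at Pre, 36.8 and 37.7 TPM at MCE, and 56.3 and 58.1 TPM at Diff. The gene was thus highest at MCE in shScram cells and lowest at MCE in shFto cells. At Diff it was 3.07-fold higher in shFto cells (log2 fold change 1.62, SE 0.16, 95% interval 1.25 to 1.98, adjusted p = 0.000182), and the value stayed between 1.53 and 1.70 with any 1 library of that stage left out (adjusted p = 0.00209 to 0.00359).

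At Pre Cdc25b was 0.61 higher in shFto cells on the log2 scale (adjusted p = 0.0244). That value was 0.36 without replicate 1 of shScram (adjusted p = 0.0178) and 0.86 without replicate 2, and without either shFto library it did not pass (adjusted p = 0.11 and 0.0988). At MCE it was 0.47 lower on the log2 scale, which did not pass (adjusted p = 0.0767), but did with median-ratio scaling (-0.54, adjusted p = 0.0208) and quantile normalization (-0.58, adjusted p = 0.0131). In shScram cells Cdc25b rose by 0.52 to MCE (adjusted p = 0.0305) and fell by 1.48 to Diff (adjusted p = 0.000438). In shFto cells it fell by 0.56 to MCE (adjusted p = 0.0275) and rose by 0.61 to Diff (adjusted p = 0.0224). Of these 4 steps, the fall in shScram cells held with any 1 of its libraries left out (adjusted p = 0.00478 to 0.00661). The rise in shScram cells was lost without either MCE library (0.119 and 0.106), and both shFto steps were lost without any 1 of their libraries (0.102 to 0.132 and 0.0904 to 0.117). With median-ratio scaling the shFto steps were -0.33 (adjusted p = 0.0922) and 0.40 (adjusted p = 0.0512).

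The change of the knockdown effect between stages was tested as an interaction. For Cdc25b it was -1.09 from Pre to MCE (SE 0.23, adjusted p = 0.0301) and 2.09 from MCE to Diff (SE 0.23, adjusted p = 0.00246). In the first, Cdc25b was the 1 member called lower and none was called higher, against 2.59% and 2.52% of all genes. In the second, 2 members were called higher and none lower, against 1.47% and 1.01%. The second held with any 1 of its 8 libraries left out (2.00 to 2.18, adjusted p = 0.0169 to 0.0218). The first passed without replicate 1 of shScram at Pre (-0.83, adjusted p = 0.00165) or replicate 2 (-1.34), and did not without any 1 of the other 6 libraries (adjusted p = 0.102 to 0.128). Without replicate 1 of shScram at Pre, 4 members were called in each of these interactions, beside 14.1% and 17.1% of all genes. Cdc25b shares 92 exonic bases with Spef1 on the opposite strand, which had a mean of 5.54 TPM.

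**Figure D3:**
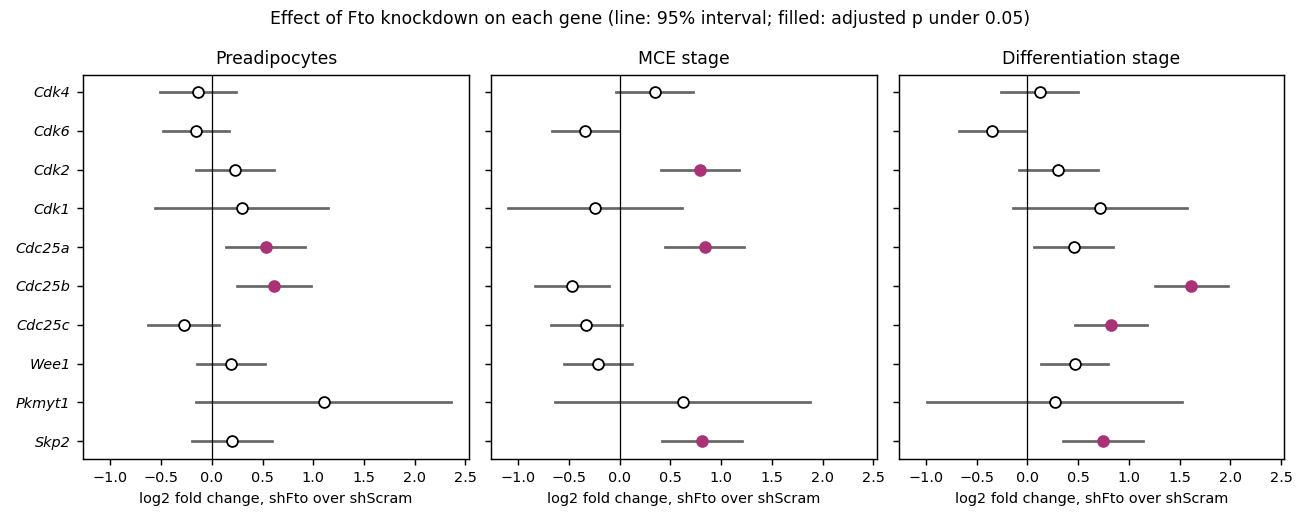
Log2 fold change of shFto over shScram cells (horizontal axis, log2(TPM + 1) scale) for each member at the 3 stages, with 95% intervals from limma and filled points for an adjusted p under 0.05. Cdc25b lies at 0.61, -0.47 and 1.62 at Pre, MCE and Diff, and the widest intervals are those of Cdk1 and Pkmyt1.

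Cdc25c, the phosphatase of the entry into mitosis (chromosome 18, 34732993 to 34751533), fell late and less so in shFto cells. It held 11.8 and 13.4 TPM in shScram cells and 10.5 and 9.89 TPM in shFto cells at Pre, 18.6 and 15.1 against 13.7 and 12.6 TPM at MCE, and 4.95 and 4.21 against 9.43 and 8.31 TPM at Diff. The shScram libraries at Diff were the lowest of all 12. The changes from Pre to MCE (0.39 in shScram and 0.34 in shFto cells) did not pass on the TPM as deposited (adjusted p = 0.0761 and 0.14) but did with median-ratio scaling (0.60 and 0.56, adjusted p = 0.0125 and 0.0205) and quantile normalization (0.51 and 0.54, adjusted p = 0.0351 and 0.0356). From MCE to Diff it fell by 1.67 on the log2 scale in shScram cells (adjusted p = 0.000216, 0.00186 to 0.00405 with any 1 library left out) and by 0.52 in shFto cells (adjusted p = 0.0362, 0.0867 to 0.197 with any 1 left out). At Diff it was 1.77-fold higher in shFto cells (log2 fold change 0.82, SE 0.16, adjusted p = 0.00588). The adjusted p was 0.0232 without replicate 1 of shScram and 0.0282 without replicate 2 of shFto, and 0.0547 and 0.0548 without the other library of each line. The change of the effect from MCE to Diff was 1.15 (adjusted p = 0.0308), and it did not pass with any 1 of its 8 libraries left out (1.01 to 1.30, adjusted p = 0.0577 to 0.146). Cdc25c shares 623 exonic bases with Gm3550 on the opposite strand, whose mean was 0.363 TPM.

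The make-up of the Cdc25 pool differed accordingly. The summed TPM of the 3 phosphatases at Diff was 33.9 and 35.8 in shScram and 82.7 and 83.8 in shFto cells, and at MCE it was 83.8 and 79.2 against 73.3 and 73.9. Cdc25b made up 49.8% and 53.7% of the sum in shScram cells at Diff and 68.2% and 69.3% in shFto cells. At MCE the order was turned, with 63.2% and 64.7% in shScram and 50.2% and 51.0% in shFto cells, where Cdc25a made up 31.1% and 31.9%. These shares restate the levels above and were not tested.

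**Figure D4:**
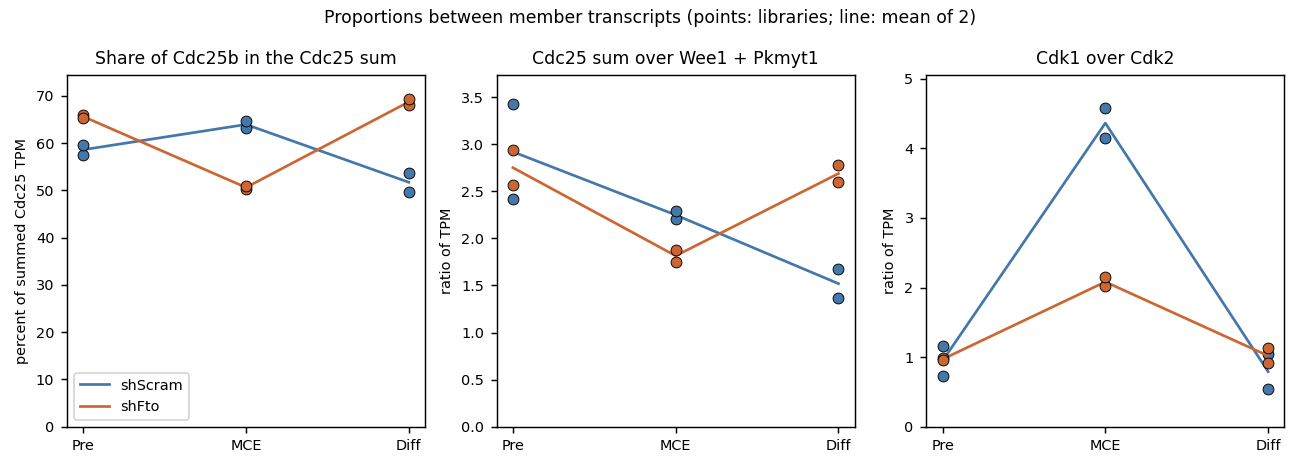
Share of Cdc25b in the summed Cdc25 TPM (percent), Cdc25 sum per Wee1 and Pkmyt1 sum, and Cdk1 per Cdk2 (ratios of TPM) at the 3 stages, with points for libraries and lines through the means of shScram (blue) and shFto cells (orange). In the first panel the lines cross between Pre and MCE and again between MCE and Diff, and in the second between MCE and Diff. In the third the shScram libraries at MCE (4.15 and 4.57) are the highest.

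Wee1, the nuclear kinase that restrains Cdk1 and Cdk2 (chromosome 7, 110122046 to 110143286), was called higher at MCE than at Pre in shScram cells. It held 12.8 and 14.8 TPM in shScram cells and 14.3 and 17.5 TPM in shFto cells at Pre, 24.7 and 21.5 against 19.2 and 20.3 TPM at MCE, and 15.7 and 15.3 against 20.5 and 23.1 TPM at Diff. In shScram cells Wee1 peaked at MCE, while in shFto cells the libraries at Diff lay above those at MCE. The knockdown effect was 0.19 at Pre, -0.21 at MCE and 0.46 at Diff (adjusted p = 0.344, 0.388 and 0.0534), and none passed. The effect at Diff did pass with median-ratio scaling (0.46, adjusted p = 0.0303) and quantile normalization (0.43, adjusted p = 0.0381). In shScram cells it rose by 0.71 to MCE (SE 0.15, adjusted p = 0.00587, under 0.05 with any 1 library of the contrast left out) and fell by 0.55 to Diff (adjusted p = 0.0263, 0.069 to 0.141 with any 1 left out). In shFto cells the steps were 0.31 (adjusted p = 0.157) and 0.13 (adjusted p = 0.561), and the first passed with median-ratio scaling (0.53, adjusted p = 0.0119) and quantile normalization (0.50, adjusted p = 0.0192). The difference between the lines in the second step was 0.68 and did not pass over all genes (adjusted p = 0.148), though it did without replicate 1 of shScram at Pre (adjusted p = 0.0217).

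Pkmyt1, which encodes the membrane-bound kinase Myt1 (chromosome 17, 23726336 to 23736735), had the widest error of the members. It stood at 2.48 and 15.1 TPM in shScram cells and 14.3 and 15.9 TPM in shFto cells at Pre, at 13.2 and 13.1 against 22.6 and 19.1 TPM at MCE, and at 9.10 and 6.08 against 9.30 and 9.09 TPM at Diff. The shScram preadipocyte libraries differed more than any other pair, and the SE was 0.55. No comparison of Pkmyt1 passed. At MCE, where both shFto libraries were above both shScram libraries, the value of 0.62 had an adjusted p of 0.518, and of 0.0104 without replicate 1 of shScram at Pre. At Pre the value was 1.10 (adjusted p = 0.153) and -0.0009 without that library. Pkmyt1 shares 319 exonic bases with Paqr4 on the opposite strand, which had a mean of 8.32 TPM, so its level is uncertain.

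Set against the inhibitory kinases, the summed Cdc25 TPM per summed Wee1 and Pkmyt1 TPM was 1.37 and 1.67 in shScram and 2.77 and 2.60 in shFto cells at Diff. At MCE it was 2.21 and 2.29 in shScram and 1.75 and 1.88 in shFto cells. At Pre the lines overlapped, with 3.42 and 2.41 in shScram and 2.93 and 2.57 in shFto cells. These are ratios of transcripts and say nothing of the activity of the enzymes.

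Skp2, which marks p27 for degradation as cells enter S phase (chromosome 15, 9111985 to 9155425), ran highest in shFto cells at MCE. It held 23.9 and 20.9 TPM in shScram cells and 22.6 and 29.4 TPM in shFto cells at Pre, 18.9 and 15.8 against 29.6 and 32.5 TPM at MCE, and 11.99 and 14.0 against 20.5 and 24.5 TPM at Diff. At MCE it was 1.75-fold higher in shFto cells (log2 fold change 0.81, SE 0.17, adjusted p = 0.0127). The adjusted p was 0.0372 without replicate 1 of shScram and 0.0606 to 0.103 without any 1 of the other 3 libraries. At Diff its difference of 0.75 (adjusted p = 0.016) did not pass without replicate 1 of shScram (0.64, adjusted p = 0.11), whose labels disagree, or replicate 2 of shFto (0.62, adjusted p = 0.127). No step between stages passed for Skp2 on the TPM as deposited (adjusted p = 0.0877 to 0.316). Its fall from MCE to Diff passed with median-ratio scaling (-0.65 in shScram and -0.66 in shFto cells, adjusted p = 0.0276 and 0.021) and quantile normalization (-0.62 and -0.59, adjusted p = 0.0473 and 0.0496). Skp2 lies opposite Lmbrd2 with no shared exonic bases.

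At Pre, 15.9% of all genes were called higher in shFto cells and 12.3% lower. These shares were 10.5% and 7.26% at MCE and 11.9% and 9.31% at Diff, and the lists below are set against them. Among the cyclin partners of these kinases, 2 of 8 were called higher in shFto cells at Pre, Ccnd3 (2.37) and Ccne1 (0.76), and 3 lower, led by Ccnd1 (-0.74). Ccnd3 held 21.3 and 143.6 TPM in shScram cells and 304.2 and 281.2 TPM in shFto cells at Pre. The size of its value (SE 0.65) thus depends on replicate 1 of shScram. At MCE 2 were higher (Ccne1, log2 fold change 1.63, and Ccne2, 1.10) and 3 lower, with the D-type cyclin Ccnd1 at -1.55 and the mitotic cyclins Ccnb2 at -0.69 and Ccnb1 at -0.62. At Diff 4 were higher, among them Ccnb2 (1.33) and Ccne1 (1.07), and 2 were lower, Ccnd1 (-1.24) and Ccnd2. The median of the list was -0.30 at Pre, -0.12 at MCE and 0.75 at Diff. The called genes kept their sign with both other scalings and without replicate 1 of shScram at Pre or at Diff. Without the latter fewer cyclins were called at Diff, as were fewer of all genes, and the list's median there was 0.78.

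Of 10 regulators of the switch enzymes, Aurka (0.44) was called higher at Pre and Mastl (-0.83) and Bora (-0.63) lower. Without replicate 1 of shScram at Pre 1 was higher and 0 lower there, and without replicate 2 4 were higher and 5 lower, beside 29.0% and 62.8% of all genes. None was called at MCE, and at Diff 3 were higher, namely Aurka (1.56), Plk1 (1.45), the kinase that acts on Wee1 and Cdc25 proteins, and its activator Bora (0.77). Of 6 CDK inhibitors tested, 3 were higher at Pre, namely Cdkn2d (1.37), Cdkn2c (1.19) and Cdkn1a (1.03). The median of the list there was 0.80, and 0.19 without replicate 1 of shScram at Pre. None was called at MCE and Cdkn2d, an inhibitor of Cdk4 and Cdk6, was higher at Diff (1.45, adjusted p = 0.0324, not called without replicate 1 of shScram at Diff). Cdkn1b, which encodes p27, was at 0.05 at MCE and 0.19 at Diff (adjusted p = 0.85 and 0.365). Cdkn1c, the remaining inhibitor of the 7 listed, did not pass the filter. The partners of Skp2 and Cks proteins had 2 of 5 called lower at Pre (Cul1, -0.87, and Rbx1, -0.38), 0 at MCE and 2 higher at Diff (Cks2, 0.94, and Cks1b, 0.65). Without replicate 1 of shScram at Diff these were not both called, and fewer of all genes were. The list's median at Diff was then 0.07, beside 0.13 in the fit of all libraries. Cul1 held 190.7 and 119.8 TPM in shScram cells and 77.4 and 87.3 TPM in shFto cells at Pre, so the size of its value depends on replicate 1 of shScram. Of the 3 subunits of the CDK-activating kinase, none was called at any stage. Fbxo5, an inhibitor of the APC/C, was higher at MCE (0.75), with 0 of 3 genes of that list called at Pre or Diff. With either other scaling that call was lost, and 0 genes of the list were higher and 1 was lower at MCE.

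Of 11 proliferation markers, 2 were called higher and 3 lower in shFto cells at Pre, with a median of -0.14. That median was -0.09 without replicate 1 of shScram at Pre and -0.07 without replicate 2. At MCE 4 were called higher, led by Rrm2 (1.52), Mcm6 (1.02) and Pcna (0.91), and 8 at Diff, led by Aurkb (1.90), Cenpa (1.34) and Rrm2 (1.31). With either other scaling 4 were higher and 1 was lower at MCE. Without replicate 1 of shScram at Diff fewer were called at that stage, as were fewer of all genes. The median of the list there was then 0.71, beside 0.82 in the fit of all libraries. In shScram cells all 11 fell from MCE to Diff, with a median of -1.89, beside -2.06 for Cdk1 and -0.39 for Skp2. The part of the number of dividing cells, and of the lower sum of adipocyte markers in shFto cells at MCE and Diff, in the members' values was not tested. Of 13 other cyclin-dependent kinases, which mostly act in transcription or in nondividing cells, 1 was higher and 2 lower at Pre, 2 were higher and 1 lower at MCE, and 2 were higher and 2 lower at Diff, with medians of -0.02, 0.15 and 0.07. With either other scaling 1 was higher and 1 lower at MCE. Without replicate 1 of shScram at Diff fewer of them were called at Diff, as were fewer of all genes, and the median there stayed at 0.07.

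**Figure D5:**
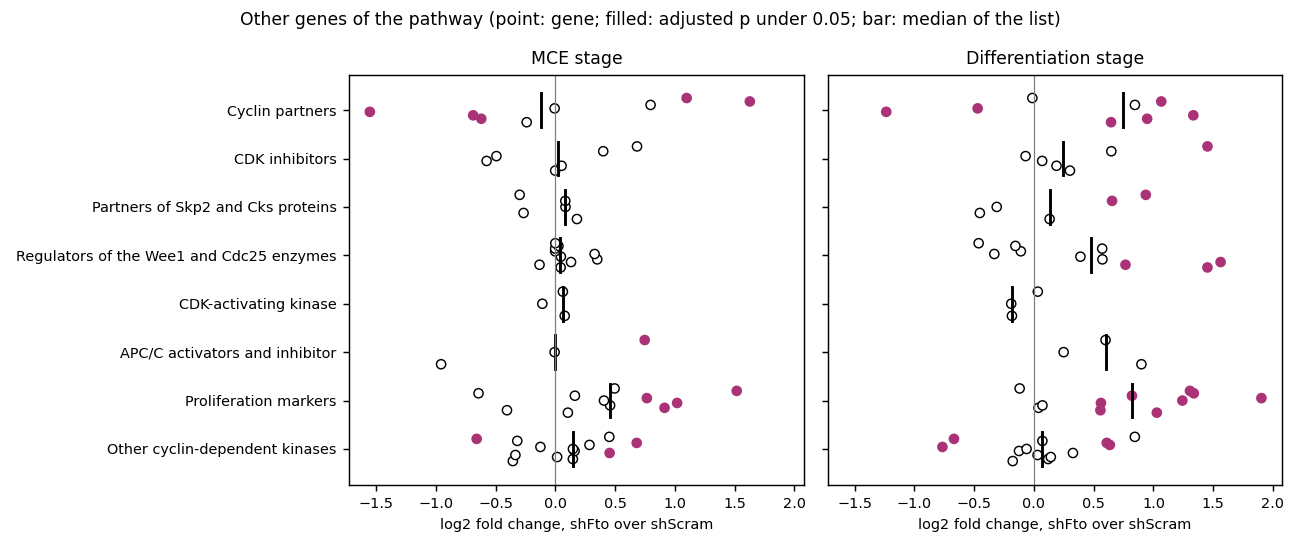
Log2 fold change of shFto over shScram cells (horizontal axis, log2(TPM + 1) scale) for the genes of 8 lists (rows) at MCE and Diff, with a point per gene, filled for an adjusted p under 0.05, and a bar at the median of each list. Cyclins lie on both sides at MCE, and 8 of 11 proliferation markers are filled and to the right at Diff.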

How the data were processed

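Per the labels and methods, total RNA was fragmented, 40-60 nt pieces were selected and poly(A)-tailed, and the authors trimmed reads with Trim Galore 0.6.5, aligned them with HISAT2 2.1.0 to GRCm38 and used StringTie 2.1.4 with Ensembl release 102 for the deposited table of TPM. The authors' own test was DESeq2 on counts, which were not used here. TPM keeps no depth, so the precision rests on the 2 libraries per group.

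From the deposited TPM, log2(TPM + 1) was tested with limma 3.58.1 (R 4.3.3, a mean per group, eBayes with trend, 6 residual degrees of freedom, two-sided, Benjamini-Hochberg over the 15968 genes that reached 1 TPM in 2 or more of 12 libraries). This scale understates the change of low genes. In a fit without 1 library, the library left alone in its group is assumed to vary like the others. For Fto, an exact permutation test exchanged the lines within stages (log2 difference -3.09, p = 0.00926, the smallest that 216 arrangements allow). Coordinates came from GENCODE release M21, which held 99.5% of the gene identifiers, and promoters from RefSeq. Python 3.11.15 with numpy 2.4.6 and pandas 2.3.3 was used elsewhere.

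The members and lists were chosen with earlier results of these data known. Named are all members, at most 3 genes per list and comparison, those with the largest absolute log2 fold change among called genes, the 5 genes nearest to Cdk1 and the nearest member of each member. Cdkn1b, Cdkn1c, Ccnd2, Ccnb1, the second naming of Ccnb2 (at MCE), Des, Cd68 and Csf1r were named after their values were seen. Alternatives were another pseudocount, filters, scalings, fits without the trend or with the libraries of the contrast only, the replicate number as a block and each library left out. No library pair held identical values.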

Additional observations from a re-analysis of the deposited data

Results flagged for a closer look

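A change of the knockdown effect between stages was called for 2 members, by interaction contrasts of limma over all genes tested. For Cdc25b the effect changed by -1.09 from Pre to MCE (adjusted p = 0.0301) and by 2.09 from MCE to Diff (adjusted p = 0.00246), and for Cdc25c by 1.15 from MCE to Diff (adjusted p = 0.0308). Of all genes, 5.11% were called in the contrast from Pre to MCE and 2.49% in that from MCE to Diff. Of the members' calls, only that of Cdc25b from MCE to Diff held with any 1 of its libraries left out, as given above. Both shFto libraries of Cdc25b lay above both shScram libraries at Pre and Diff and below them at MCE. With 2 libraries per group, no group was large enough for a check of single outlying samples.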

How the results depend on the processing

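The number of members called varied between settings. In the fit of all libraries it was 2, 3 and 3 for the knockdown at Pre, MCE and Diff, 5 and 5 for the steps of shScram cells, 3 and 3 for those of shFto cells, and 1 and 2 for the interactions. With only the libraries of the contrast it was 0, 7 and 7 for the knockdown, 0 for the step from Pre to MCE in shScram cells, 5 and 8 for the steps of shFto cells, and 0 and 4 for the interactions. At Pre it was 1 with a pseudocount of 0.1, with no filter, with quantile normalization and with no trend. With no filter it was 3 for shScram cells from Pre to MCE and 0 for the first interaction. With quantile normalization it was 5 for the knockdown at Diff, and 5 and 6 for the steps of shFto cells, the second of which was also 6 with median-ratio scaling. With each library left out in turn, it ranged from 0 to 5, 0 to 7 and 2 to 8 for the knockdown, from 2 to 6 and 3 to 9 in shScram cells, from 0 to 5 and 0 to 8 in shFto cells, and from 0 to 5 and 1 to 4 for the interactions. The share of all genes called also changed between settings. For shScram cells from MCE to Diff it was 25.2% in the fit of all libraries and 17.8% with quantile normalization. It is not given for each fit here, so these counts alone show nothing particular to the members. The cause of these differences was not tested. Signs were compared for the knockdown values, the called steps and interactions, and the Wee1 interaction from MCE to Diff. In this set they turned for Cdk4 at Diff with quantile normalization (-0.0114) and for 4 values at Pre, none of which had been called. With each library left out, these ranged from -0.3033 to 0.8898 for Cdk1, -0.0435 to 0.496 for Cdk2, -0.4145 to 0.1404 for Cdk4 and -0.0009 to 2.2089 for Pkmyt1, the lowest without replicate 1 and the highest without replicate 2 of shScram. Of the other values in this set, 350 kept their side of the threshold, 15 gained and 34 lost a call outside the left-out fits. In the left-out fits most values also kept their side, but a larger share lost a call. Uncalled steps and interactions outside the set also turned sign. Wee1 in shFto cells from MCE to Diff, for example, went from 0.13 to -0.07 with median-ratio scaling. Cdc25b at Diff and its interaction from MCE to Diff passed in every alternative run.

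The deviations of equally numbered libraries correlated between groups from -0.29 to 0.17, and the main fit did not pair them. With only the difference of 2 libraries in each group, this check cannot tell whether such libraries shared a culture or batch. With the replicate number as a block, 3 members were called for shScram cells from Pre to MCE, and the other counts stayed within 1.5 times. Counts of genes in the lists under other scalings and without replicate 1 or 2 of shScram at Pre and replicate 1 of shScram at Diff were added after seeing the data. TPM hides the depth, so which low values are limited by it is unknown.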
